A study of Mus musculus with 8 samples.

Results

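The receptor machinery of the gp130 cytokines and its Jak-Stat feedback was followed in muscle stem cells (MuSCs) 21 days after the leg muscles had lost their nerve. The 10 genes described here are the ligand *Lif*, the receptor genes *Osmr*, *Lifr*, *Il6ra*, *Il11ra1* and *Il6st*, the kinase genes *Jak1* and *Jak2*, the transcription factor *Stat3* and the inhibitor *Socs3*. They were chosen by name, with earlier results of these data known, from the 55487 genes of the deposited count table. Each matched 1 row, and all 10 passed the filter on low counts that left 17454 genes for testing. After DEN, *Socs3* was 13.8-fold higher, *Lif* 2.67-fold, *Osmr* 2.65-fold and *Stat3* 1.65-fold, whereas *Lifr* was 1.29-fold lower. *Il6st*, *Il6ra*, *Il11ra1*, *Jak1* and *Jak2* did not pass the test.

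The mice were male C57BL/6J animals of 2 to 6 months. In the DEN group a piece of the sciatic nerve of 1 side was cut out, and in the Sham group the nerve was located but left whole. Both groups received the analgesic meloxicam. Hind limb muscle was digested with collagenase and dispase, and living cells that carried α7-integrin but none of CD45, CD31, CD11b and Sca-1 were sorted. Each group had 4 mice with 1 library per mouse. DEN replicate 1 was set aside by the authors as an outlier after inspection of a scaling plot. It is likewise given apart here, so that the comparison is of 3 DEN with 4 Sham libraries.

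Between 28541080 and 31572843 reads were counted per DEN library compared, between 29048620 and 34145854 per Sham library, and 26627173 in DEN replicate 1. Of the 10 MuSC markers examined, 2 were higher after DEN (*Myf5* and *Cdh15*) and none was lower. *Pax7* and *Itga7* are also in this list and were not called. Over all genes tested, 5.29% were higher and 5.32% lower. The summed level of the 10 markers was 7370 to 8245 normalized CPM (counts scaled to a common library size) in DEN and 6152 to 7072 CPM in Sham. The summed level of 14 macrophage markers was 131, 8.37 and 6.94 CPM in DEN replicates 2, 3 and 4 and 17.4 to 54.0 CPM in Sham. The groups overlapped through DEN replicate 2 alone, which was above all Sham libraries, whereas DEN replicates 3 and 4 were below them. DEN replicate 1 held 4.72 CPM. Of 8 macrophage markers tested, 1 was higher, *C1qb*, at 15.5, 0.444 and 0.245 CPM in DEN and at most 0.339 CPM in Sham. The summed level of 9 neutrophil markers was 0.444 to 1.18 CPM in DEN and 0 to 0.0348 CPM in Sham, with 6 of them at 0 throughout and *S100a8*, the only one tested, higher in DEN. That of 12 lymphocyte markers was 6.35 to 8.21 CPM in DEN and 3.39 to 5.97 CPM in Sham, with 5 at 0 throughout. In such bulk libraries a change in the share of cells that express a gene and a change in RNA per cell cannot be told apart.

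gp130, encoded by *Il6st*, is the signaling chain shared by the receptors of the interleukin-6 family. Oncostatin M binds a pair of gp130 and the oncostatin M receptor, LIF binds a pair of gp130 and the LIF receptor, and interleukin-6 and interleukin-11 first bind their own α-chains. The kinases Jak1 and Jak2, which sit on the receptor tails, then phosphorylate Stat3, which moves to the nucleus and switches on target genes. *Socs3* is a classical target of Stat3, and its protein binds gp130 and the Jak kinases and shuts the signal off. In muscle, oncostatin M is known to promote quiescence of MuSCs, whereas LIF and interleukin-6 are known to promote proliferation of myogenic cells.

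The level of a gene in a library is given below as normalized CPM, with library sizes scaled by TMM. A gene was called a differentially expressed gene (DEG) at an adj. p under 0.05 in the quasi-likelihood test of edgeR with Benjamini-Hochberg adjustment over all 17454 genes. Of all genes tested, 10.6% were DEGs, with 5.29% up and 5.32% down. Of the 10 genes of the gp130 system, 4 were higher and 1 was lower. The ranges of the groups did not touch for 6 of the 10 genes, with 5 above and 1 below Sham, whereas 23.4% of all genes tested had such separate ranges in either direction. The median log2 fold change of the 10 genes was 0.36, and that of all genes tested was -0.00. With DEN replicate 1 included, the same 5 genes were DEGs, against 11.5% of the genes then tested. The 10 genes were chosen with earlier results of these data known, so these counts beside the shares are no test.

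**Figure D1:**
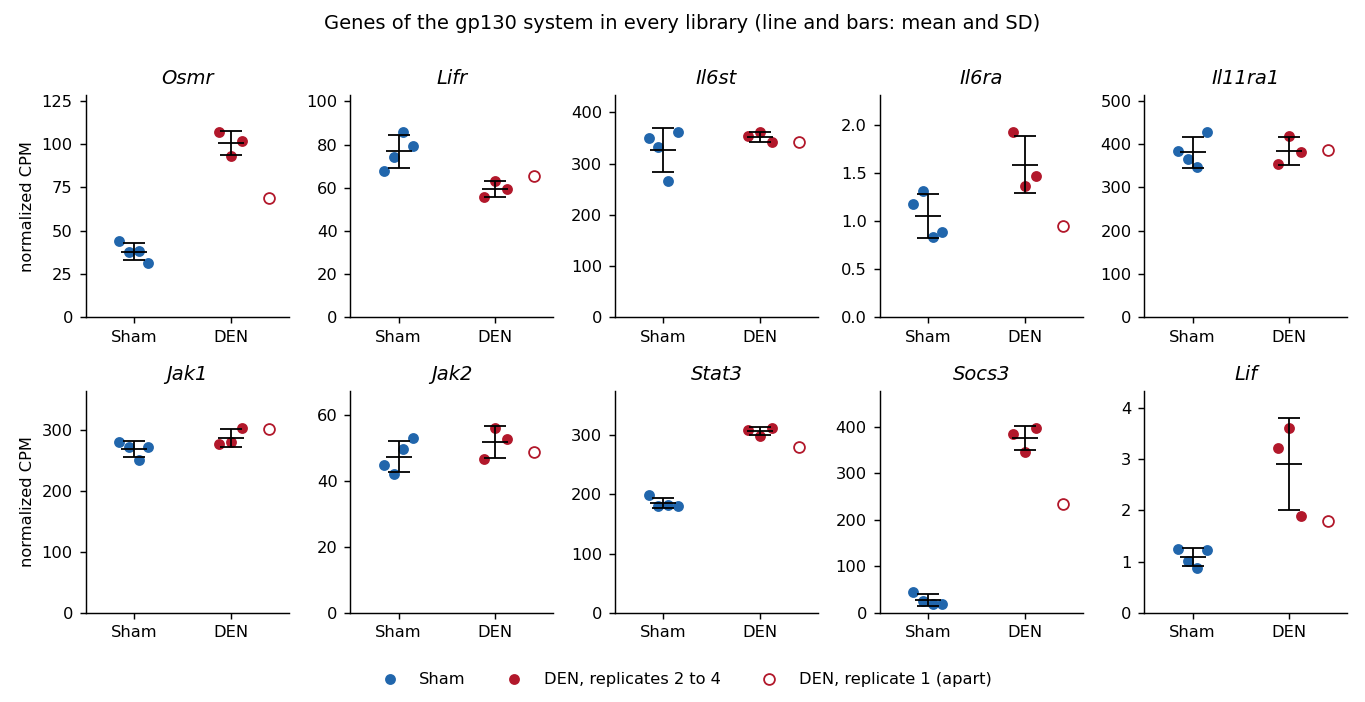
Normalized CPM of the 10 genes in every library, with Sham in blue, DEN replicates 2 to 4 in red and DEN replicate 1 as an open circle, and the mean and SD of each group without DEN replicate 1 in black. The ranges of Sham and DEN are apart for *Osmr*, *Lifr*, *Il6ra*, *Stat3*, *Socs3* and *Lif*, and each axis starts at 0.

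*Socs3*, the feedback inhibitor, changed most among the 10. Its level was 384, 347 and 398 CPM in DEN replicates 2, 3 and 4, and 45.4, 25.4, 18.4 and 19.3 CPM in Sham replicates 1 to 4. Every DEN library stood far above every Sham library, and within Sham, replicate 1 was the highest. The means were 376 ± 26 CPM (SD, n = 3) in DEN and 27.1 ± 13 CPM (SD, n = 4) in Sham. The log2 fold change was 3.79 with a standard error of 0.27 and an adj. p of 5.2e-05 in the edgeR test. DEN replicate 1 held 234 CPM, above all Sham libraries and below the other DEN libraries, and on the log2 scale it had covered 82.5% of the distance from the Sham mean to the DEN mean.

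The *Socs3* gene lies on the minus strand at chr11:117966079-117970047 (GRCm38), and no exon of another gene overlaps its exons. Stat proteins bind a palindrome of TTC, 3 free bases and GAA, that is TTCNNNGAA, which reads the same on both strands. Among the RefSeq promoter windows of the 10 genes (12 windows, each running from 250 bases before to 50 bases after a start site), 1 window held this motif, that of *Socs3*. Of all 32851 windows of the mouse genome in the same table, 8.30% held it. Thus 1 window in 12 is near the share over all windows. The stricter form TTCCNGGAA, of which every match is also a match of the wider motif, was in 1.15% of all windows and in none of the 12. The match TTCTTAGAA lies at chr11:117969512-117969520, 154 bases before the RefSeq start site and within the stretch chr11:117969452-117969616 on the minus strand of GRCm38.p6. Match and stretch both lie inside the gene span given above, not upstream of the whole annotated gene. This stretch is shown because it carries the motif of the gene with the largest change, with the motif in capitals.
Socs3: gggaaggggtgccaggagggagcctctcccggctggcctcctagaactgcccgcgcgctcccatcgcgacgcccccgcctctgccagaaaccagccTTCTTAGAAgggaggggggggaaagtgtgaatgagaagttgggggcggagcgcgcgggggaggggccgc
The RefSeq start site used for these distances lies 180 bases before the start of the protein-coding transcript of GENCODE. The window that held the match ended at chr11:117969317, short of that transcript start at chr11:117969186, and the bases between were not part of it. A match describes these letters only, and binding was not measured.

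*Stat3* encodes the transcription factor that the receptors activate. Its level was 309, 299 and 313 CPM in DEN and 199, 181, 183 and 180 CPM in Sham. The DEN libraries were close to each other and all above Sham, in which replicate 1 was again the highest. The means were 307 ± 6.9 CPM (SD, n = 3) and 186 ± 8.9 CPM (SD, n = 4), with a log2 fold change of 0.73 (SE 0.07, adj. p 0.000148 in edgeR). DEN replicate 1, at 281 CPM, had covered 82.2% of the distance on the log2 scale. *Stat3* lies at chr11:100885098-100939540, and 72 of its 9527 exonic bases are shared with *Stat5a* on the other strand, so that reads from these bases cannot be told apart because strand was not used in counting.

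*Osmr*, the chain that binds oncostatin M together with gp130, was the only receptor gene of the 10 that was higher after DEN. Its level was 107, 93.1 and 102 CPM in DEN and 43.9, 37.8, 38.4 and 31.6 CPM in Sham, and the lowest DEN library stood above the highest Sham library. The means were 101 ± 7.0 CPM (SD, n = 3) and 37.9 ± 5.0 CPM (SD, n = 4), and the log2 fold change was 1.41 (SE 0.11, adj. p 6.6e-05 in edgeR). DEN replicate 1 held 68.9 CPM, between the groups, at 61.6% of the distance on the log2 scale.

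*Lifr*, which takes the place of *Osmr* in the receptor for LIF, moved the other way. Its level was 55.6, 63.2 and 59.3 CPM in DEN and 67.9, 74.3, 85.8 and 79.4 CPM in Sham. All DEN libraries were below all Sham libraries, but the gap between the nearest of them was small. The means were 59.4 ± 3.8 CPM (SD, n = 3) and 76.9 ± 7.6 CPM (SD, n = 4), and the log2 fold change was -0.37 (SE 0.09, adj. p 0.0308 in edgeR). This call was lost without DEN replicate 2 (adj. p 0.121), DEN replicate 3 (0.0504), DEN replicate 4 (0.0858), Sham replicate 2 (0.0567), Sham replicate 3 (0.0686) or Sham replicate 4 (0.0698), with the log2 fold change between -0.43 and -0.32 over all leave-outs. DEN replicate 1 held 65.4 CPM, below the lowest Sham library. *Osmr* and *Lifr* are neighbors on chromosome 15, at chr15:6813577-6874969 on the minus strand and chr15:7090614-7197489 on the plus strand, with 215644 bases and 1 annotated gene between them, which did not pass the filter on low counts.

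*Il6st*, the shared gp130 chain, was measured at 355, 362 and 342 CPM in DEN and at 349, 333, 266 and 362 CPM in Sham. The groups overlapped, and Sham replicate 3 was the lowest library. The log2 fold change was 0.11 (SE 0.10, adj. p 0.574 in edgeR). *Il6ra*, the α-chain for interleukin-6, was the lowest of the 10, with 57, 43 and 42 reads in DEN and 39, 45, 24 and 26 reads in Sham. Its level was 1.93, 1.36 and 1.47 CPM in DEN and 1.18, 1.31, 0.834 and 0.882 CPM in Sham. These ranges were just apart, but DEN replicate 1, at 0.952 CPM, lay within the Sham range, and the log2 fold change of 0.59 (SE 0.29) had an adj. p of 0.243 in edgeR. The exons of *Il6ra* share 242 of 8642 bases with the predicted gene Gm42809 on the other strand.

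*Il11ra1*, the α-chain for interleukin-11, was at 355, 419 and 381 CPM in DEN and at 384, 365, 347 and 428 CPM in Sham, with overlapping groups and a log2 fold change of 0.01 (SE 0.09, adj. p 0.950 in edgeR). The sign of this difference depended on single libraries. Its count is uncertain, since the mouse genome holds near-identical copies. *Il11ra1* took 73.8% of the counts of the family, 3 rows named *Il11ra2* took 7.95%, 3.55% and 3.50%, and Gm13305 took 11.2%. None of these copies was a DEG, with log2 fold changes from -0.03 to 0.06.

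The kinase *Jak1* was at 276, 281 and 303 CPM in DEN and at 280, 272, 251 and 272 CPM in Sham. *Jak2* was at 46.4, 56.0 and 52.5 CPM in DEN and at 44.8, 42.0, 49.5 and 52.8 CPM in Sham. The groups overlapped for both kinases. The log2 fold changes were 0.09 (SE 0.07, adj. p 0.456) for *Jak1* and 0.13 (SE 0.10, adj. p 0.497) for *Jak2* in edgeR.

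*Lif*, the only ligand among the 10, was low in all libraries, with 95, 114 and 54 reads in DEN and 41, 35, 25 and 36 reads in Sham. Its level was 3.21, 3.61 and 1.89 CPM in DEN and 1.24, 1.02, 0.869 and 1.22 CPM in Sham. The DEN libraries were all above Sham, and DEN replicate 4 was the nearest to it. The means were 2.91 ± 0.90 CPM (SD, n = 3) and 1.09 ± 0.18 CPM (SD, n = 4), and the log2 fold change was 1.42 (SE 0.28, adj. p 0.0112 in edgeR). Without DEN replicate 3 it was 1.23 with an adj. p of 0.0512, so the call rested on that library. DEN replicate 1 held 1.79 CPM, at 53.2% of the distance on the log2 scale.

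**Figure D2:**
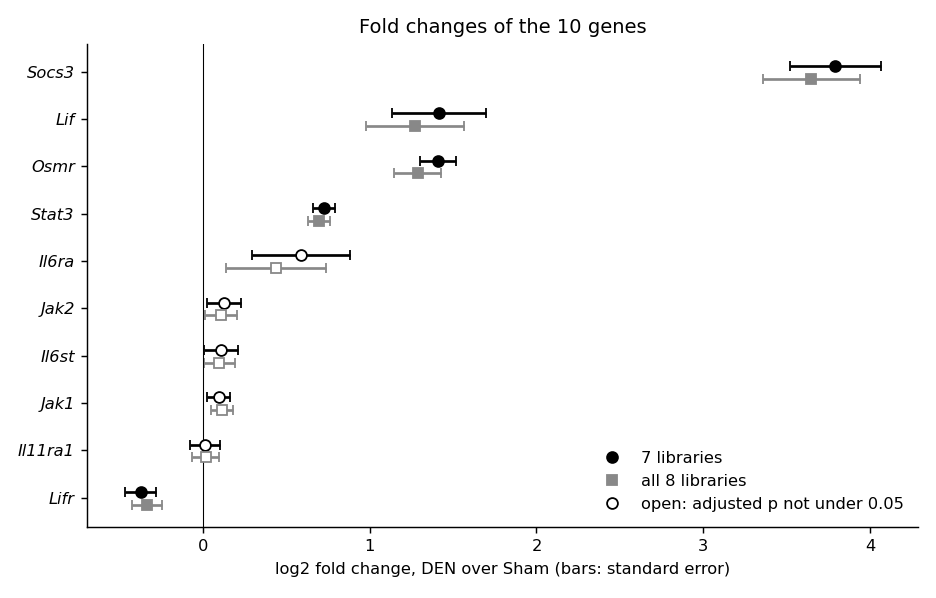
Log2 fold change of DEN over Sham with its standard error (horizontal axis) for each of the 10 genes, with 7 libraries in black and all 8 in grey, filled where the adj. p was under 0.05. *Socs3*, *Lif*, *Osmr* and *Stat3* lie to the right of 0 and *Lifr* to the left, and the same 5 symbols are filled in both fits.

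Compared per length, as RPKM (reads relative to gene length and library total), the order of the 10 genes changed between the groups. In Sham, *Il11ra1* was the highest at 85.3 ± 8.0 RPKM (SD, n = 4), followed by *Jak1* at 37.2 ± 2.0, *Il6st* at 29.5 ± 4.0 and *Stat3* at 19.5 ± 0.99 RPKM. *Jak2* (9.40 ± 0.92 RPKM), *Socs3* (9.39 ± 4.4 RPKM) and *Lifr* (7.13 ± 0.66 RPKM) came next, and the ranges of *Jak2* and *Socs3* and of *Socs3* and *Lifr* overlapped. *Osmr* followed at 3.13 ± 0.42 RPKM, below every Sham value of *Lifr*. *Lif* and *Il6ra* were the lowest, at 0.250 and 0.122 RPKM.

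In DEN, *Socs3* was the highest at 130 ± 9.2 RPKM (SD, n = 3), above *Il11ra1* at 86.0 ± 7.2 and *Jak1* at 39.7 ± 2.0 RPKM. *Stat3* (32.2 ± 0.73 RPKM) and *Il6st* (31.8 ± 0.88 RPKM) overlapped. *Jak2* was at 10.3 ± 0.96 RPKM, *Osmr* at 8.30 ± 0.58 and *Lifr* at 5.50 ± 0.35 RPKM, each apart from the next. Thus *Osmr* was below *Lifr* in all 4 Sham libraries and above it in all 3 DEN libraries compared. In DEN replicate 1, set apart, *Osmr* was below *Lifr*, at 5.61 against 5.99 RPKM. *Lif* and *Il6ra* again were the lowest, at 0.668 and 0.184 RPKM.

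Ratios of 2 genes within a library do not depend on how that library is scaled. The *Osmr* to *Lifr* ratio of RPKM was 1.71, 1.31 and 1.53 in DEN and 0.575, 0.452, 0.398 and 0.354 in Sham, with 0.936 in DEN replicate 1. The difference of the mean log2 ratios was 1.78 (two-sided exact permutation test, p = 0.0286, adj. p 0.0571 over the 6 ratios tested), where 0.0286 is the smallest p that 35 divisions of 7 libraries can give, so that no ratio could pass 0.05 after adjustment unless more of them reached that floor. The *Socs3* to *Stat3* ratio was 4.10, 3.82 and 4.19 in DEN and 0.752, 0.463, 0.331 and 0.353 in Sham. Its log2 difference was 3.17 (exact permutation p = 0.0286, adj. p 0.0571). The *Osmr* to *Il6st* ratio differed by 1.30 on the log2 scale with the same p-values, and its ranges were apart. The ratios use the same libraries as the single-gene results above, and their genes were chosen with earlier results known. With *Osmr* above Sham and *Lifr* below Sham in every DEN library compared, the separation of their ratio was already given. The p-values of the ratios are therefore no independent support.

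The *Lifr* to *Il6st* ratio was 0.162, 0.180 and 0.178 in DEN and 0.200, 0.230, 0.333 and 0.226 in Sham, a log2 difference of -0.49 (exact permutation p = 0.0571, adj. p 0.0857). *Il6ra* to *Il6st* (log2 difference 0.49, exact permutation p = 0.0857, adj. p 0.103) and *Jak2* to *Jak1* (0.04, exact permutation p = 0.83) had overlapping groups. With all 8 libraries, which allow 70 divisions, the adj. p was 0.0429 in the exact permutation test for *Osmr* to *Lifr*, *Osmr* to *Il6st*, *Lifr* to *Il6st* and *Socs3* to *Stat3*.

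**Figure D3:**
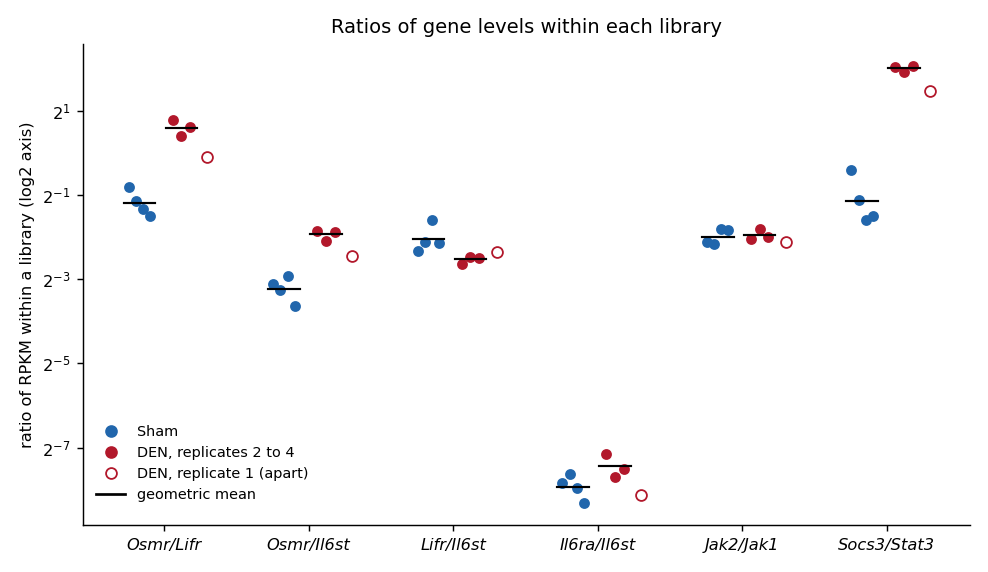
Ratio of the RPKM of 2 genes within each library on a log2 axis, with Sham in blue, DEN replicates 2 to 4 in red, DEN replicate 1 as an open circle and the geometric mean of each group without it as a line. The groups are apart for *Osmr*/*Lifr*, *Osmr*/*Il6st*, *Lifr*/*Il6st* and *Socs3*/*Stat3*, and *Osmr*/*Lifr* runs from 0.354 to 0.575 in Sham and from 1.31 to 1.71 in DEN.

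Outside the 10 genes, the 6 pathway lists other than that of the early response genes, which are described further on, held 72 genes, of which some had more than 1 row, giving 74 rows with 61 tested. Of these, 17 were higher and 6 lower after DEN, with a median log2 fold change of 0.09. Over all genes tested, 5.29% were higher and 5.32% lower, and the same shares apply to the counts of each list below. The known Stat3 targets, which include the early response genes *Fos* and *Junb*, held 9 of the higher and 4 of the lower genes. Among the ligands, 5 of 10 were tested and 1 was higher. *Clcf1*, a ligand of the ciliary neurotrophic factor receptor, was at 52.3, 35.0 and 46.5 CPM in DEN and 23.8, 19.7, 19.4 and 16.0 CPM in Sham (log2 fold change 1.17, SE 0.16, adj. p 0.00125 in edgeR). *Osm*, the gene of the *Osmr* ligand, had no count in any of the 7 libraries. *Il6* had a log2 fold change of -0.16 (adj. p 0.899 in edgeR) at levels under 0.5 CPM. *Osm* and *Il6* were picked here as the ligands of 2 of the receptors.

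Of the other receptors, 6 rows were tested, and 1 was lower. *Lepr*, the leptin receptor, was at 17.3, 11.3 and 12.4 CPM in DEN and 22.1, 24.2, 37.3 and 24.0 CPM in Sham (log2 fold change -0.98, SE 0.21, adj. p 0.0150 in edgeR), and its call was lost without DEN replicate 3 (adj. p 0.0625) or DEN replicate 4 (0.0633). Of 7 other Jak and Stat genes tested, 1 was higher, namely *Stat6*, which acts downstream of interleukin-4, by 0.25 on the log2 scale (SE 0.07, adj. p 0.0483 in edgeR), a call that was lost on leaving out any single library. *Stat5a* and *Stat5b* were not DEGs, with log2 fold changes of -0.11 and -0.20.

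All 15 other feedback inhibitors were tested, of which 4 were higher and 1 was lower. *Cish*, an inhibitor of the same family as *Socs3* that is typically induced through Stat5, was at 11.6, 24.2 and 2.59 CPM in DEN and 0.574, 0.495, 1.43 and 1.15 CPM in Sham. DEN replicate 4 was far below the other DEN libraries, yet above all Sham libraries. The log2 fold change was 3.83 (SE 0.64, adj. p 0.00422 in edgeR), and it was 2.98 without DEN replicate 3 (adj. p 0.0165). *Socs5* (0.49, SE 0.12, adj. p 0.0228) and *Ptpn1* (0.28, SE 0.07, adj. p 0.0241), a phosphatase that acts on Jak2, were slightly higher, and *Ptpn11*, the phosphatase Shp2, was slightly lower (-0.34, SE 0.08, adj. p 0.0184) in edgeR. The call of *Socs5* was lost without DEN replicate 2, 3 or 4 or Sham replicate 2 or 4 (adj. p 0.0585 to 0.0691). That of *Ptpn1* was lost without DEN replicate 2 or 3 or Sham replicate 2, 3 or 4 (adj. p 0.0552 to 0.0970), and that of *Ptpn11* without DEN replicate 2 or 4 or Sham replicate 2 (adj. p 0.0514 to 0.0830). *Socs1*, named here after its values were seen, was also higher (log2 fold change 0.76, SE 0.19, adj. p 0.0307 in edgeR). Its dependence on single libraries was not examined.

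Of 7 genes tested for receptor shedding and the Shp2 branch, through which gp130 reaches the MAP kinases, 2 were higher. *Gab2*, a docking adaptor, was at 31.5, 32.8 and 29.2 CPM in DEN and 15.1, 19.2, 23.1 and 16.1 CPM in Sham (log2 fold change 0.76, SE 0.15, adj. p 0.00873 in edgeR). *Shc1*, another adaptor, was higher by 0.26 on the log2 scale (SE 0.07, adj. p 0.0483 in edgeR), and its call was lost without DEN replicate 2 or 3 or any 1 of the Sham replicates (adj. p 0.0666 to 0.157). *Adam10* and *Adam17*, which shed receptors from the cell surface, had log2 fold changes of -0.04 and 0.07 and were not DEGs.

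Of 25 known Stat3 target genes, 21 were tested, of which 9 were higher and 4 lower, with a median log2 fold change of 0.43. *Fos*, an AP-1 subunit, was at 2474, 2079 and 2224 CPM in DEN and 147, 88.7, 49.3 and 51.6 CPM in Sham (log2 fold change 4.74, SE 0.35, adj. p 6.2e-05 in edgeR). *Junb*, another AP-1 subunit, rose by 3.27 (SE 0.25), *Timp1*, an inhibitor of matrix metalloproteinases, by 3.11 (SE 0.26), and *Mcl1*, which protects cells from apoptosis, by 0.76 (SE 0.07), with adj. p of 6.6e-05, 0.000108 and 0.000162 in edgeR. The 4 lower genes, named here after their values were seen, were *Bcl2l1*, also a survival gene (-0.50), the repressor *Bcl6* (-1.37), *Cebpb* (-0.39) and *Ccnd1*, the cyclin D1 gene (-0.77). *Myc* and *Hif1a* had log2 fold changes of 0.14 and 0.02 and were not DEGs. The list thus did not move in 1 direction.

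**Figure D4:**
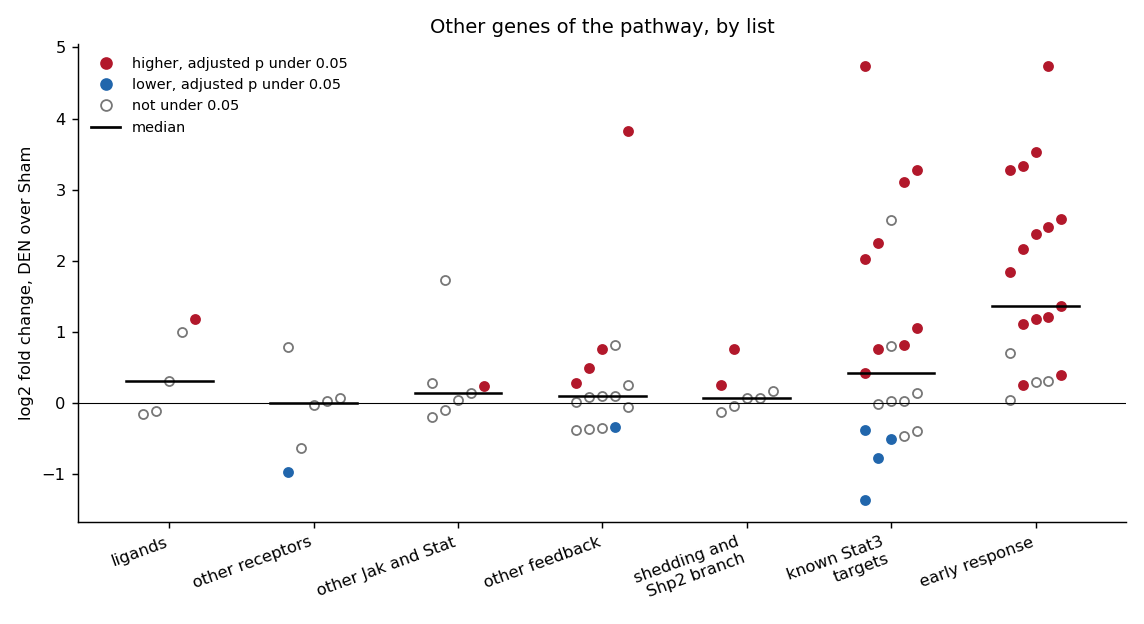
Log2 fold change of DEN over Sham (vertical axis) for each tested gene of the 7 pathway lists (horizontal axis), filled red where higher and blue where lower at an adj. p under 0.05, with the list median as a line. The highest values are those of *Fos* (4.74), which is in 2 lists, and *Cish* (3.83), and the early response genes have the highest median, 1.36.

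*Fos* and *Junb* also belong to the early response genes, a group known to be switched on within minutes to hours by many signals and by the digestion of tissue. All 19 of these genes were tested, of which 15 were higher after DEN and none was lower. The 4 with the smallest adj. p were *Zfp36*, which destabilizes cytokine mRNAs (log2 fold change 2.17, adj. p 5.75e-06), *Jun* (2.37, adj. p 1.3e-05), *Fos* and *Junb*, all in edgeR. The summed level of all 19 genes was 10181, 9417 and 10301 CPM in DEN and 2930, 2372, 1903 and 1904 CPM in Sham, with 8355 CPM in DEN replicate 1. Sham replicate 1 had both the highest sum and the highest *Socs3* among the Sham libraries, and DEN replicate 1 was below the other DEN libraries in both. *Hspa1a* and *Hspa1b*, 2 heat shock genes of the list, were not DEGs, with log2 fold changes of 0.31 and 0.05. Whether the early response genes and the changes in the gp130 system have a common source was not tested.

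The genes with the profile most like that of *Socs3* over the 8 libraries, among 13178 genes compared, were *Fosb*, *Egr1* and *Junb*, all 3 early response genes. Their root mean square distances from *Socs3* on the centred log2 scale were 0.17, 0.26 and 0.27. For *Osmr* they were *Pold4*, a subunit of DNA polymerase δ (0.09), *Inhbb*, the inhibin βB gene (0.15), and *Nfkbiz*, a regulator of NF-κB target genes (0.15). *Stat3* was nearest to Gm7172 (0.05), the tubulin gene *Tuba1c* (0.06) and Gm17938 (0.07). These are likenesses over 8 libraries in which the difference between the groups is the main component.

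**Figure D5:**
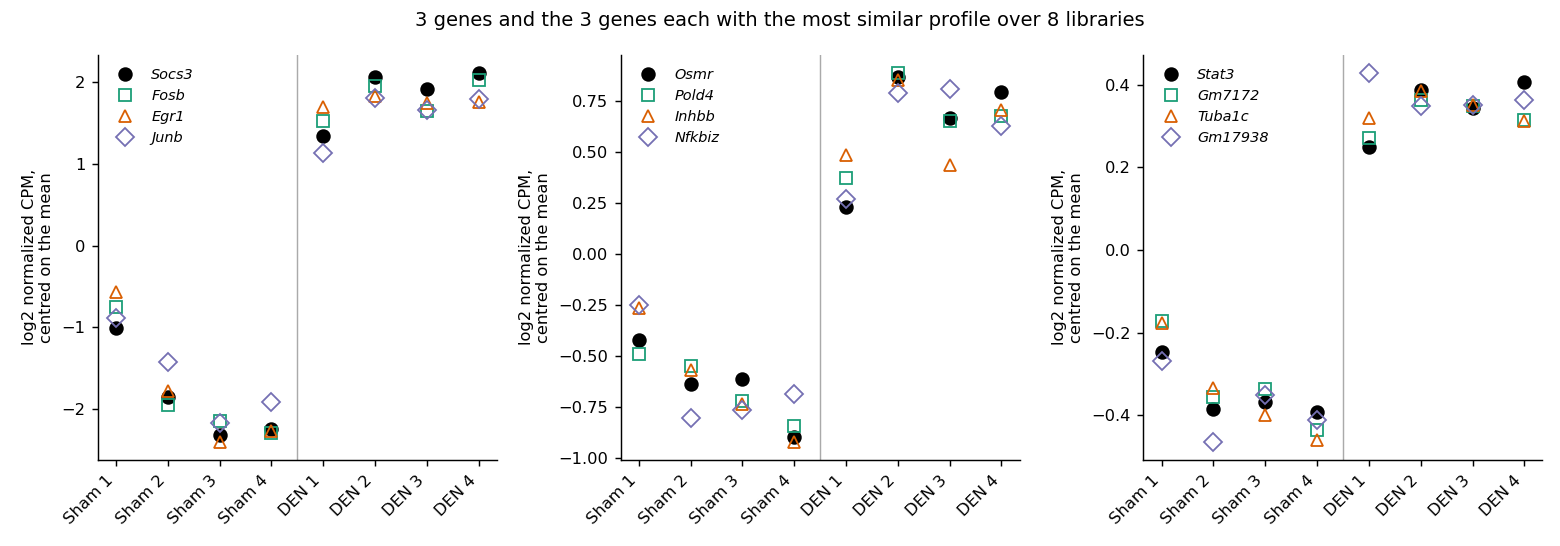
Log2 normalized CPM, centred on its mean over the 8 libraries (vertical axis), of *Socs3*, *Osmr* and *Stat3* in black and of the 3 most similar genes in color, for Sham replicates 1 to 4 and DEN replicates 1 to 4 (horizontal axis). In the panel of *Socs3* the Sham libraries spread more widely than DEN replicates 2 to 4, and Sham replicate 1 is the highest Sham library for all 4 genes.

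Among markers of other cells that such a sort could hold, the summed level of 11 fibro-adipogenic progenitor markers was lower in every DEN library than in every Sham library, that of 10 adult myofiber genes was higher, and the sums of endothelial, smooth muscle and Schwann cell markers overlapped between the groups. The sum of 9 smooth muscle and pericyte markers was 10711 to 11290 CPM in DEN and 10275 to 13172 CPM in Sham. *Rgs5* and *Kcnj8* had the highest levels among them. In every library this sum was larger than that of the 10 MuSC markers. The paper could not exclude that other cells with α7-integrin were sorted along with the MuSCs. Of 8 Schwann cell markers, 2 were higher (*Ngfr* and *Sox10*) and 3 lower (*Mbp*, *Mag* and *S100b*), with a median log2 fold change of -0.63, of 9 smooth muscle markers, 1 was higher and 2 were lower, and of 11 endothelial markers none was called. The myofiber sum was 896 to 965 CPM in DEN and 236 to 388 CPM in Sham. Of these genes 9 were tested and 8 were higher, beside 5.29% of all genes tested. The fibro-adipogenic sum was 5220 to 5630 CPM in DEN and 5824 to 7685 CPM in Sham. Of 10 of these markers tested, 1 was higher and 2 were lower, and their median log2 fold change was 0.12, above 0. The markers with the highest levels, *Gsn* and *Col3a1*, weigh most in that sum. The sum of 7 erythroid genes was 1955 to 2962 CPM in DEN and 5066 to 10191 CPM in Sham, with 5 of them lower. The part of these cells in the levels of the 10 genes was not tested.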

How the data were processed

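RNA of sorted MuSCs from 8 mice was sequenced as single-end reads of full-length cDNA. Per the submitters' processing notes, demultiplexing used bcl2fastq 2.20.0.422, adapter removal cutadapt 2.1, alignment TopHat2 2.1.0 (GRCm38, 1 alignment kept per read) and counting featureCounts 1.6.5, which took no account of strand. The deposited table of the authors holds raw counts per gene, RPM (counts divided by the library total) and RPKM (RPM divided by a gene length, which for the genes described here equals the merged exons of GENCODE M21). Keeping 1 alignment per read can move reads between near-identical genes, and without strand antisense reads are counted too.

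Counts were filtered with filterByExpr (minimum count 10, total 15), scaled by TMM and compared with the quasi-likelihood test of edgeR 4.0.16 in R 4.3.3, with robust dispersions and Benjamini-Hochberg adjustment over 17454 genes (common biological coefficient of variation 0.161). The authors used DESeq2 for their own comparison, which here is an alternative (1.42.0). Each library is 1 mouse. DEN replicate 1 was scaled with all 8 libraries. RPKM ratios were compared by exact permutation, and RPM served 1 alternative in limma 3.58.1. The code was tested on simulated data. Total counts of 26627173 to 34145854 per library bound counting error, which matters for *Il6ra* and *Lif* with 24 to 114 reads.

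The text names every one of the 10 genes. From each pathway list it names up to 4 called genes with the smallest adj. p, and for *Socs3*, *Osmr* and *Stat3* the 3 genes with the nearest profile among tested genes with a mean log2 CPM above 1. The nearest profiles of *Lifr* were also part of this rule and are not reported here. Other genes were named after their values were seen. The 10 genes and all lists were chosen with earlier results of these data known. Profiles were compared by the root mean square difference of centred log2 CPM. Gene positions are those of GENCODE M21 and promoter windows those of RefSeq on GRCm38.p6, in which all 10 genes were matched. Motifs in the receptor proteins were planned but not analysed here.

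Alternatives were DESeq2, RLE size factors, library totals only, no filter on low counts, all 8 libraries, leaving out each of the 7 libraries in turn, the replicate number as a block, limma on log2(RPM + 0.5) and, for the ratios, a pseudocount of 0.1 RPKM or raw counts.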

Additional observations from a re-analysis of the deposited data

Results flagged for a closer look

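Levels of the 10 genes and the 6 ratios were checked in each group of 4 libraries for a library far from the rest. Of these 32 sets, 1 passed the critical value of Dixon's ratio, and chance flags about 1 in 20 such sets. It was *Stat3*, for which Sham replicate 1 stood at 199 CPM above the other 3 Sham libraries (Dixon ratio 0.841). Without Sham replicate 1, *Stat3* stayed a DEG.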

How the results depend on the processing

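*Socs3*, *Osmr* and *Stat3* kept their direction and call in every alternative, with log2 fold changes of 3.64 to 4.17, 1.29 to 1.49 and 0.69 to 0.76. On leaving out single libraries, *Lifr* ranged from -0.43 to -0.32 and *Lif* from 1.23 to 1.65, with the calls lost as described above, and *Il11ra1*, which was not called, ranged from -0.051 to 0.073. The number of the 10 genes called then ran from 3 to 4 higher and from 0 to 1 lower. Over all genes, 575 to 900 were higher and 523 to 914 lower (924 and 929 with 7 libraries), and in the pathway lists 10 to 15 were higher and 2 to 5 lower (17 and 6 with 7 libraries). The *Jak2* to *Jak1* difference ranged from -0.04 to 0.09 and was -0.0034 with all 8 libraries. With all 8 libraries, the log2 differences of the ratios were 1.61 for *Osmr* to *Lifr*, 1.17 for *Osmr* to *Il6st*, -0.44 for *Lifr* to *Il6st* and 3.03 for *Socs3* to *Stat3*, each with an adj. p of 0.0429 in the exact permutation test, as *Lifr* to *Il6st* then also reached the smallest p of 0.0286. Without the filter on low counts, *Cish* had an adj. p of 0.0595 in edgeR. The deviations of same-numbered DEN and Sham libraries had correlations of -0.0082, 0.0075 and -0.057. Those of differently numbered libraries ran from -0.037 to 0.042. With so few pairs, these values cannot decide whether the numbers pair the mice. With the replicate number as a block, Sham replicate 1 was alone in its block and did not inform the difference between the groups. *Lif* was then at 1.45 with an adj. p of 0.0534 in edgeR, and 11 pathway genes were higher. The cause of these changes was not tested. Depth limits *Il6ra* and *Lif*.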
